A study of Homo sapiens with 9 samples.

Results

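The genes described here encode the proteins of the cytosolic ribosome, the particle that translates nuclear-encoded mRNA. Members were chosen by symbol, as RPL or RPS followed by P0 to P2 or by a number with at most a closing A, X or L, and by a level averaging 1 TPM or more. TPM, a transcript abundance unit, divides reads by transcript length and scales each library to the same sum. Among 56609 symbols, 83 matched, and 81 of them passed the level. They divide into 76 core genes, 46 of the large and 30 of the small subunit, and 5 genes that are copies of a core gene, RPL7L1, RPL22L1, RPL26L1, RPL39L and RPS27L. RPL3L and RPL10L stayed below the level. RPL10L was listed at 0 in all 9 samples, and RPL3L was above 0 only in control replicate 2, at 0.058 TPM. RPSA, FAU and RACK1, which are also parts of the ribosome, and RPL36AL, a copy of RPL36A, lie outside the symbol rule and are given separately.

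RNA came from MCF10A, an established, non-tumorigenic human breast epithelial line, in 3 groups of 3 samples. The high calcium group received 10 mM calcium together with the ionophore ionomycin, labelled as 1 mM, for 16 h. The TGFb3 group received, by its label, transforming growth factor beta 3 at 10 nM for 16 h, and the control group was untreated. The protocol text also names other TGFb isoforms, and the label was followed. All groups shared a DMEM/F12 medium with 5% horse serum and with EGF, insulin, hydrocortisone, cholera toxin and antibiotics, and the series title ties the work to raised calcium during milk stasis. Calcium and ionomycin were always given together and cannot be told apart here, and the single line stands for breast epithelium in culture. The labels do not say that replicates were separate cultures, so p-values describe only how far these 9 libraries scatter, which can be technical scatter.

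Ribosomal proteins are made in near-equal amounts, since each assembled ribosome holds a single copy of nearly all of them. Their mRNAs are among the most abundant of a growing cell, and nearly all begin with a C followed by a run of pyrimidines, the 5′ terminal oligopyrimidine or TOP tract. Through this tract the kinase mTOR, with the RNA-binding protein LARP1, sets how strongly the mRNAs are translated and how stable they are. Free ribosomal proteins, foremost RPL5 and RPL11, can bind the ubiquitin ligase MDM2.

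The tract can be read at the annotated transcript starts. RefSeq start windows on GRCh38.p14 were given for 65 of the 81 members, 61 of them core genes. A C followed by at least 4 pyrimidines stood exactly at an annotated start in 45 of 61 core genes, or 73.8%, against 5.14% of 27305 genes with a window. Within 5 bases of a start it stood in 52 of 61 core genes, or 85.2%, against 25.2% of all genes. The 12 windows printed are those of copies with the gene they resemble and of core genes among the most changed, each holding the 15 bases before the start and the first 15 transcribed bases, 5′ to 3′, with the run in capitals. Where a gene had several windows, the one with the run nearest its start is shown.
RPL22, chr1:6199581-6199610, minus strand: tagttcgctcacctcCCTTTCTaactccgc
RPL22L1, chr3:170870181-170870210, minus strand: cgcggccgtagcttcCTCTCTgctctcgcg
RPL26, chr17:8383179-8383208, minus strand: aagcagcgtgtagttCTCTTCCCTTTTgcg
RPL26L1, chr5:172958714-172958743, plus strand: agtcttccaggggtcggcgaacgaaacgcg
RPS27, chr1:153990747-153990776, plus strand: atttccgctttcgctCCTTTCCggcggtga
RPS27L, chr15:63157463-63157492, minus strand: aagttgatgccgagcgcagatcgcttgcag
RPL7L1, chr6:42879601-42879630, plus strand: cggaagtgcggcgccgtagctaggagcgga
RPL27A, chr11:8682777-8682806, plus strand: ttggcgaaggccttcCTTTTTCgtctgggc
RPL10, chrX:154398362-154398391, plus strand: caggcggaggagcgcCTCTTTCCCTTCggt
RPL35, chr9:124861943-124861972, minus strand: agccccgcctacttcCTCTTTCCCTCggag
RPL36, chr19:5690280-5690309, plus strand: ccgcgcggcgccagcCCTTCCgccacggcc
RPS14, chr5:150449725-150449754, minus strand: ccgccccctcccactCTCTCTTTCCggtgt
In the windows with a run it began at the first transcribed base and was 6 bases long in RPL22L1 and RPL36 and 12 bases long in RPL26 and RPL10. RPL22L1 carried such a run as RPL22 did. The windows of RPL26L1, RPS27L and RPL7L1 held no run at or within 5 bases of the start, unlike those of RPL26 and RPS27. Over the whole window of 250 bases before and 50 after the start, CGGAAG, the core motif of ETS-family factors such as GABPA, was found on either strand in 63.9% of core genes with a window and 22.6% of all genes. CCATNTT, the core of YY1 sites, was found on either strand in 26.2% of core genes and 18.6% of all genes. These are matches of letters, not measured binding sites.

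The core genes were high in every sample but far from equal. Mean levels over the 9 samples lay between 175.0 TPM for RPS28 and 5015 TPM for RPS24, a 28.7-fold range, with a median of 1425 TPM and quartiles of 779.5 and 1887 TPM. Levels of at least 500 TPM were reached by 71 of the 76, and 15 reached 2000 TPM. RPS24, RPL13A and RPS6, the small-subunit protein phosphorylated by S6 kinases, had the highest means, at 5015, 4146 and 4122 TPM. RPS26, RPL14, RPL37 and RPS28 had the lowest, at 358, 311, 308 and 175.0 TPM. The 76 genes lie on 21 chromosomes, and 27 hold a small nucleolar RNA gene on the same strand.

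**Figure D1:**
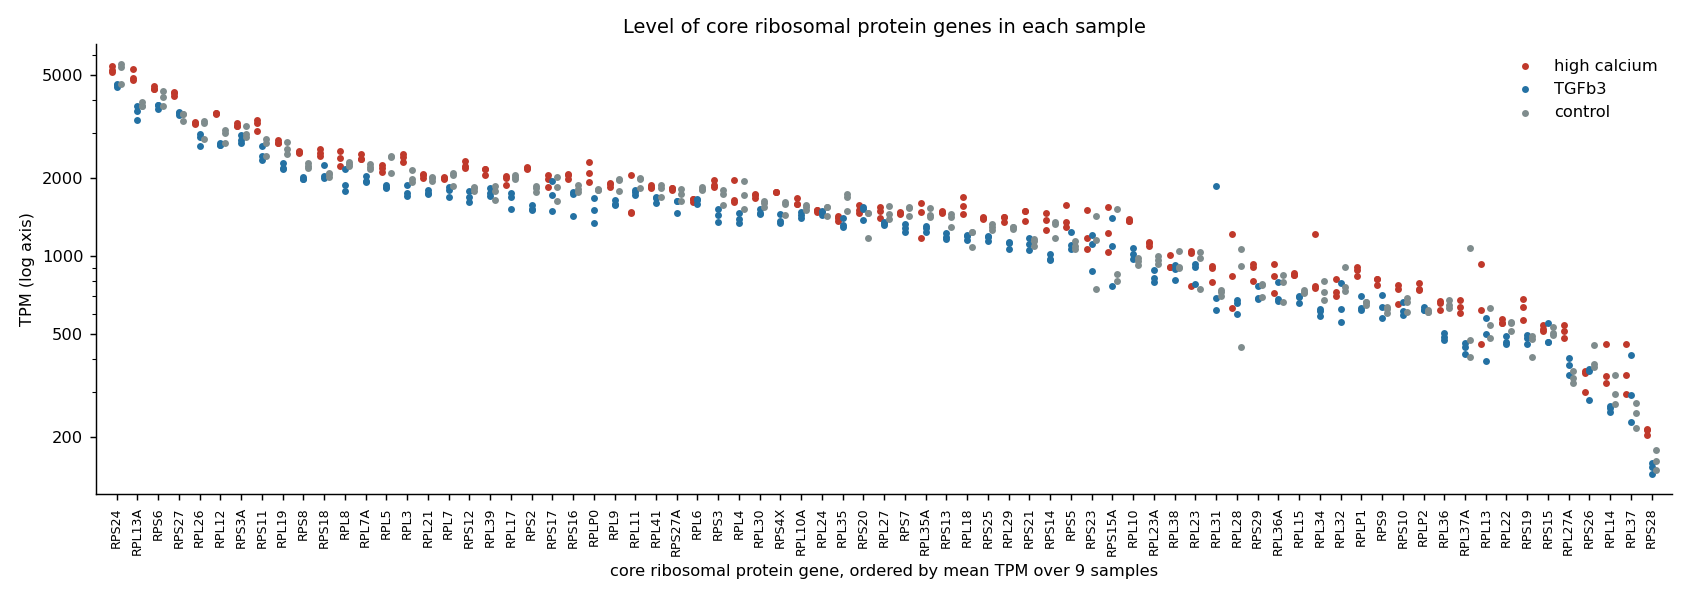
TPM (log axis) of core ribosomal protein genes, all but 1 of the 76, ordered by their mean over 9 samples, with 1 point per sample coloured by group. Levels run from about 5015 TPM for RPS24 to 175.0 TPM for RPS28, and RPL31, RPL37A, RPL28 and RPL13 have single samples far from the others of their group.

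The copies were lower than the genes they resemble, by very different margins. RPL22L1 averaged 456 ± 23.9 TPM in high calcium, 252 ± 40.9 TPM in TGFb3 and 491 ± 79.1 TPM in control (SD, n = 3 each), against 558 ± 9.68 TPM, 472 ± 18.7 TPM and 540.4 ± 23.9 TPM for RPL22 in the same groups. The other copies were at most a few percent of their gene. RPL7L1, whose yeast relative acts in large-subunit assembly, had 88.9 to 128 TPM over the 9 samples. RPL26L1 had 50.6 to 75.3 TPM, RPS27L 21.5 to 41.9 TPM, and RPL39L, best known from testis, 9.33 to 21.9 TPM.

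Facts of the whole table bear on how these values are read. RNA of the mitochondrial genome (37 MT symbols) took 11.5 ± 0.37% of TPM in high calcium, 22.7 ± 0.59% in TGFb3 and 22.7 ± 0.91% in control (SD, n = 3 each). Because TPM of a library always add up to the same sum, leaving out these genes and rescaling lowered the members' high calcium minus control differences by about 0.2 on the log2 scale. Among 13968 tested symbols the median difference was 0.22 for high calcium and −0.06 for TGFb3 against control. Rescaling by median ratios, which centres the genes, moved the high calcium median to −0.01. Basal markers of the line were present, with KRT5 at 1072 to 1821 TPM, while PTPRC and CD3E of leukocytes, CDH5 of endothelium, PGR of luminal cells and ADIPOQ of adipocytes were at 0 in all samples. The 6 basal or general epithelial markers were KRT5, KRT14, KRT17, TP63, EPCAM and CDH1. They summed to 5925 to 6171 TPM in high calcium, 3676 to 4350.2 TPM in TGFb3 and 2923 to 3077 TPM in control. The sum hides unlike members, since with TGFb3 4 were called higher and 1 lower than control, with log2 differences from −1.31 to 1.46. The 3 leukocyte markers, with only CD14 above 0, summed to 32.3 to 39.1 TPM, 1.99 to 3.26 TPM and 18.1 to 21.4 TPM in the same groups, and the 3 fibroblast markers to 7.81 to 8.54 TPM, 12.3 to 14.9 TPM and 1.77 to 2.78 TPM. MALAT1, a nuclear RNA, averaged 424 ± 32.2 TPM in high calcium, 204 ± 12.4 TPM in TGFb3 and 158 ± 44.7 TPM in control. It was 1 of 2 RNAs listed as a guide to RNA quality, and both were called higher in high calcium than in control. With TGFb3 the 2 went opposite ways, since 1 was called higher, at 0.40, and 1 was not called, at −0.19. The part of these RNAs in the results was not tested. In bulk RNA, fewer cells with a transcript and less of it per cell cannot be told apart, and the depth behind TPM is unknown.

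The ribosomal protein genes together took between 10.3% and 13% of all TPM. Their sum was 12.7%, 13% and 12.7% of TPM in the high calcium samples, 10.7%, 10.3% and 10.7% in the TGFb3 samples, and 11.8%, 12% and 11.1% in the control samples. All high calcium samples lay above, and all TGFb3 samples below, every control sample. Without the mitochondrial genes the sum was 14.4%, 14.6% and 14.4% in high calcium, 13.8%, 13.5% and 13.8% in TGFb3, and 15.3%, 15.4% and 14.4% in control. On that scale the TGFb3 samples still lay below every control sample, while the high calcium samples overlapped the controls, with a mean of 14.5 ± 0.11% against 15 ± 0.54% (SD, n = 3 each). On the deposited scale both subunits showed the same order of groups. Core large-subunit genes took 7.13 ± 0.096%, 5.90 ± 0.097% and 6.57 ± 0.26% of TPM in high calcium, TGFb3 and control, and core small-subunit genes 5.62 ± 0.049%, 4.64 ± 0.12% and 4.99 ± 0.24% in the same groups. The copies together took 0.0677 ± 0.0019% in high calcium, 0.0434 ± 0.0049% in TGFb3 and 0.0723 ± 0.0089% in control. Without mitochondrial genes high calcium lay below every control sample for core large-subunit genes, at 8.05 ± 0.078% against 8.50 ± 0.28%. It did so for the copies too, at 0.0765 ± 0.0019% against 0.0934 ± 0.011%. Core small-subunit genes overlapped the controls there, at 6.35 ± 0.053% against 6.45 ± 0.25%. On that scale TGFb3 lay below every control sample in each of these sums. No p-value is given for these sums.

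**Figure D2:**
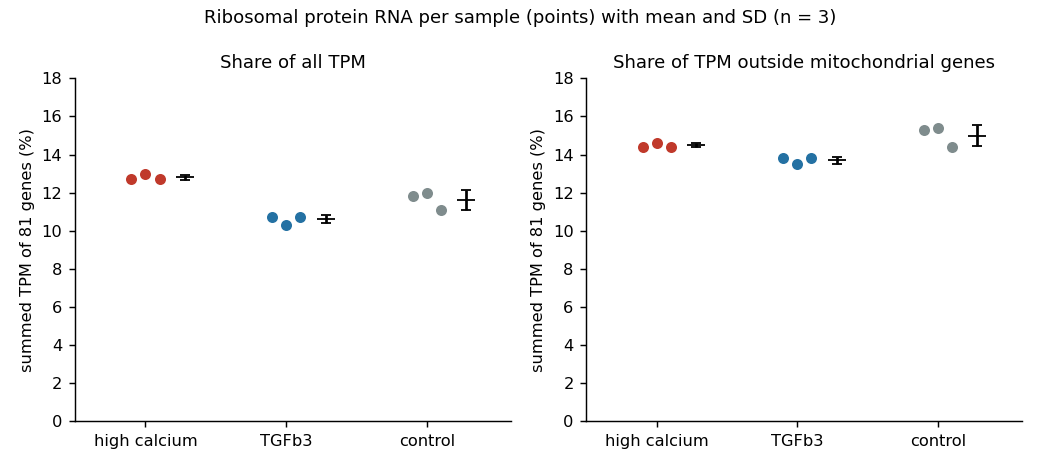
Summed TPM of the 81 ribosomal protein genes per sample, as a percent of all TPM (left) and of TPM outside mitochondrial genes (right), with the mean and SD of 3 samples beside the points. High calcium is above control on the left (12.8 ± 0.13% against 11.6 ± 0.51%) and overlaps it on the right, while TGFb3 is below control on both.

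Under high calcium the family moved little, and its direction depended on the scale. With TPM as deposited 33 of 81 members were higher, 3 were lower and 45 were not called against control (limma, Benjamini-Hochberg adjusted p under 0.05), where 46.1% of all tested symbols were called higher and 17.0% lower. The median member differed by 0.12 on the log2 scale, against 0.22 for all tested symbols. Without mitochondrial genes 12 members were higher and 21 lower, against 32.3% and 26.4% of all symbols, with medians of −0.08 for the members and 0.05 for all. The 12 became 6 without high calcium replicate 2, 7 without high calcium replicate 1 or control replicate 1, and 8 without control replicate 2. With median ratio rescaling 4 were higher and 31 lower, and with quantile normalisation 21 and 11. Of the core genes, 17 of 46 large-subunit and 15 of 30 small-subunit genes were called higher as deposited, and 2 and 0 lower. Without mitochondrial genes 7 large-subunit genes were higher and 17 lower, and 5 small-subunit genes were higher and 3 lower.

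Within the family, 4 members were higher and 3 were lower than control on all 4 scales (as deposited, without mitochondrial genes, median ratio and quantile), where 26.3% of the symbols tested on all 4 were called higher and 16.8% lower on each. The higher ones included RPL27A, RPL10 and RPLP1, and the lower ones RPL35, RPL6 and RPL7L1. RPL27A, a large-subunit protein, stood at 513, 541 and 483 TPM in high calcium and at 359, 339 and 325 TPM in control. Every high calcium sample lay above every control sample, with a log2 difference of 0.59 ± 0.065 (SE, adjusted p = 2.9e-05) and 0.33 to 0.59 over the scales. RPL10, which joins the large subunit late and shapes the site where tRNA is held, stood at 1364, 1363 and 1394 TPM in high calcium and 926, 982 and 958 TPM in control. The groups did not overlap, and the difference was 0.52 ± 0.043 (SE, adjusted p = 3.1e-06), or 0.27 to 0.52 over the scales. RPL10 and RPL27A overlap other annotated genes, as do further members, among them RPL13A, RPL22, RPL26 and RPL26L1. Whether counting used strand is not given in the sources used here.

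RPLP1 belongs to the stalk, the flexible arm of the large subunit that recruits elongation factors. It had 906, 886 and 842 TPM in high calcium and 649, 666 and 666 TPM in control, without overlap, a difference of 0.41 ± 0.052 (SE, adjusted p = 7.1e-05). Its partner RPLP2 had 790.2, 743 and 747 TPM in high calcium against 609.6, 610.3 and 620.3 TPM in control, and differed by 0.31 ± 0.035 as deposited and by 0.11 without mitochondrial genes, called on both scales. With median ratio rescaling RPLP2 was at 0.05 and not called (adjusted p = 0.26 in limma). RPLP0, the base of the stalk, had 2318, 1929 and 2106 TPM in high calcium against 1814, 1807 and 1805 TPM in control. Its difference of 0.22 ± 0.083 (SE, adjusted p = 0.038) was not called without mitochondrial genes, at 0.03, nor on leaving out 6 of the 9 samples in turn, and was −0.03 with median ratio rescaling. All 3 stalk genes were thus above control without overlap as deposited.

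Other members high in the order were less firm. RPS19, a small-subunit protein whose loss causes Diamond-Blackfan anaemia, had 568, 639 and 681 TPM in high calcium against 490, 479 and 407 TPM in control, a difference of 0.46 ± 0.081 (SE, adjusted p = 0.00074) and of 0.26 without mitochondrial genes. With median ratio rescaling RPS19 was at 0.2 and not called (adjusted p = 0.094 in limma). RPL37 had 293, 459 and 346 TPM in high calcium against 247, 216 and 272 TPM in control. Its difference of 0.56 ± 0.21 had an adjusted p of 0.041 in limma, and the call was lost without high calcium replicate 2, at 0.38, and on leaving out 4 other samples in turn. RPL37 was not called on the other scales either, at 0.36 without mitochondrial genes, 0.30 with median ratio rescaling and 0.42 with quantile normalisation (adjusted p = 0.17, 0.24 and 0.12 in limma).

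At the low end, RPL35, which lies by the exit of the nascent peptide tunnel, had 1409, 1434 and 1367 TPM in high calcium against 1698, 1740.1 and 1502 TPM in control. The groups did not overlap, and the difference was −0.23 ± 0.059 (SE, adjusted p = 0.0066), or −0.48 to −0.23 over the scales. RPL6 had 1665, 1626 and 1658 TPM against 1856, 1812 and 1804 TPM in control and differed by −0.14 ± 0.037, or −0.40 to −0.14 over the scales. RPS26, a protein at the mRNA exit of the small subunit, had 353, 361 and 299 TPM in high calcium against 452, 373 and 383 TPM in control, and its difference of −0.25 ± 0.12 was not called as deposited (adjusted p = 0.087) but was on the other scales, at −0.45 without mitochondrial genes, −0.51 with median ratio rescaling and −0.41 with quantile normalisation.

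RPL5 and RPL11 form, with the 5S rRNA, the particle that binds MDM2. RPL5 had 2189.8, 2117 and 2256 TPM in high calcium against 2436, 2423 and 2092 TPM in control, overlapping, with a difference of −0.08 ± 0.06 (SE, adjusted p = 0.27), and was called lower on the other scales, at −0.28 without mitochondrial genes, −0.33 with median ratio rescaling and −0.19 with quantile normalisation. RPL11 had 1470.0, 1481 and 2055 TPM in high calcium against 1985, 2005 and 1834 TPM in control. High calcium replicate 3 lay above all controls and the other 2 below them, so the difference of −0.24 ± 0.11 was not called as deposited (adjusted p = 0.088). RPL11 was called lower on the other scales, at −0.43 without mitochondrial genes, −0.49 with median ratio rescaling and −0.34 with quantile normalisation (adjusted p = 0.0074, 0.0054 and 0.035 in limma). Without that sample the deposited difference was −0.39, with an adjusted p of 0.00021.

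Among the members of highest level, RPL13A was higher, at 4789.6, 5271 and 4867 TPM in high calcium against 3824, 3936 and 3808 TPM in control (0.37 ± 0.058, and 0.17 without mitochondrial genes, both called). With median ratio rescaling RPL13A was at 0.11 and not called (adjusted p = 0.16), and with quantile normalisation at 0.54 and called. RPS6 had 4444, 4422 and 4548 TPM in high calcium against 4116, 4349 and 3806 TPM in control, a difference of 0.13 ± 0.053 (adjusted p = 0.054) that was −0.07 without mitochondrial genes and −0.12 with median ratio rescaling, not called on any of the 3. With quantile normalisation RPS6 was called higher, at 0.40 (adjusted p = 6e-06 in limma). RPS27A, a ribosomal protein made as a fusion with ubiquitin, differed by 0.08 ± 0.055 and RPL41, the shortest ribosomal protein, by 0.04 ± 0.046. Neither was called as deposited, and without mitochondrial genes the values were −0.12 and −0.15, with RPL41 then called lower. With median ratio rescaling both RPS27A, at −0.18, and RPL41, at −0.21, were called lower. RPS24, the highest member, had 5157, 5244 and 5433 TPM in high calcium against 5512, 5393 and 4649 TPM in control and differed by 0.03 ± 0.065 as deposited and by −0.17, called, without mitochondrial genes. The call for RPS24 turned with the scale, since it was lower with median ratio rescaling, at −0.23 (adjusted p = 0.036), and higher with quantile normalisation, at 0.31 (adjusted p = 0.0055).

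**Figure D3:**
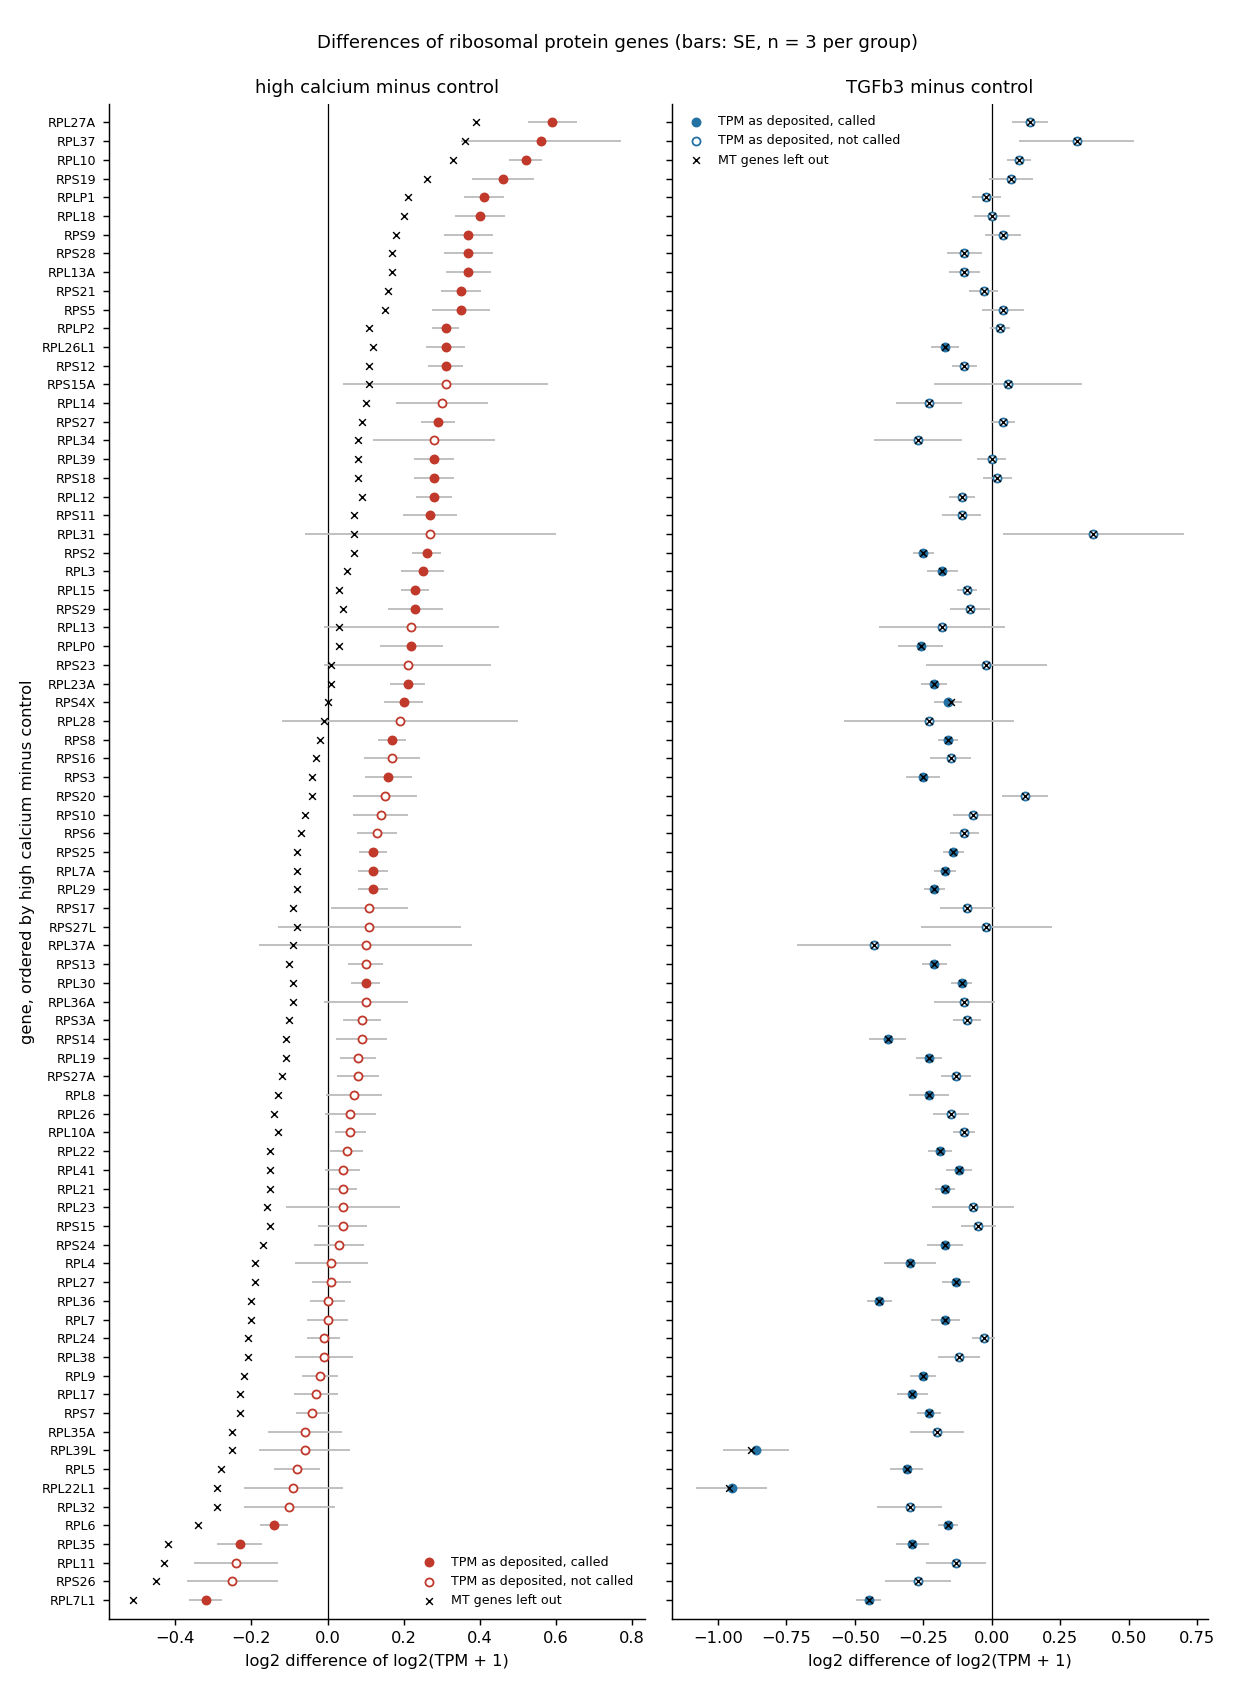
Log2 difference of log2(TPM + 1) for all but 1 of the 81 members, high calcium minus control (left) and TGFb3 minus control (right), ordered by the left panel, with bars for the SE (n = 3 per group), filled points for called genes and crosses for values without mitochondrial genes. Crosses lie about 0.2 below the points on the left and on them at right, where the 33 called genes are all below 0 and RPL22L1 and RPL39L reach −0.95 and −0.86.

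With TGFb3 the family was lower, by small amounts. As deposited 33 of 81 members were lower and 48 were not called against control, where 33.1% of all tested symbols were called lower and 26.5% higher. The limma fit called 0 members higher, and 1, RPL10, was higher at an unadjusted p under 0.05. The median member differed by −0.14, against −0.06 for all tested symbols. Without mitochondrial genes 37 were lower and 0 higher, with 1, RPL10, at an unadjusted p under 0.05, beside 32.5% and 26.1% of all symbols. With median ratio rescaling 19 were lower and 1 higher, and with quantile normalisation 39 and 1. Calls fell on 20 of 46 core large-subunit genes, 9 of 30 core small-subunit genes and 4 of 5 copies. Both treatments were set against the same 3 control samples.

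On all 4 scales 19 members were lower with TGFb3, among them 3 copies and 16 core genes, where 30.4% of the symbols tested on all 4 were called lower on each. The core gene with the largest called difference was RPL36, a large-subunit protein. It had 505, 488 and 473 TPM with TGFb3 against 676, 647 and 630.3 TPM in control, without overlap, a log2 difference of −0.41 ± 0.045 (SE, adjusted p = 2.4e-05). RPS14, the small-subunit protein lost in the 5q- syndrome, had 1024, 971 and 977 TPM against 1354, 1181 and 1338 TPM in control, and differed by −0.38 ± 0.067 (SE, adjusted p = 0.0007). RPL5 had 1859, 1833 and 1881 TPM with TGFb3 against 2436, 2423 and 2092 TPM in control, a difference of −0.31 ± 0.06 (SE, adjusted p = 0.0011). All TGFb3 samples of these genes lay below all control samples. RPL35, at −0.29 ± 0.059, was also among the 19 and was called lower in high calcium too. RPL6, at −0.16 ± 0.037, was called lower as deposited and without mitochondrial genes, as it was in high calcium. With TGFb3, however, RPL6 was not called lower on all 4 scales.

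RPL11 did not share the call of RPL5. It had 1799, 1772 and 1732 TPM with TGFb3 against 1985, 2005 and 1834 TPM in control, without overlap, and differed by −0.13 ± 0.11 (adjusted p = 0.32). Without high calcium replicate 3, whose scatter enters the shared estimate of error, the adjusted p was 0.034 at the same difference. Whether RPL5 and RPL11 differed from each other in their response was not tested. Of the stalk genes RPLP0 was lower, at 1678, 1509 and 1348 TPM with TGFb3 against 1814, 1807 and 1805 TPM in control (−0.26 ± 0.083, adjusted p = 0.019). That call was lost without TGFb3 replicate 3, at −0.18. RPLP0 was also not called lower on all 4 scales, with −0.22 and an adjusted p of 0.05 in limma after median ratio rescaling. RPLP1 and RPLP2 differed by −0.02 ± 0.052 and 0.03 ± 0.035 and were not called.

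Several large differences with TGFb3 rested on 1 sample. RPL37A had 444, 418 and 462 TPM with TGFb3 and 1079.8, 474 and 409 TPM in control, and its difference of −0.43 ± 0.28 was 0.00 without control replicate 1. RPL31 had 692, 622 and 1873 TPM with TGFb3 and 702, 726 and 738 TPM in control. Its difference of 0.37 ± 0.33 was −0.14 without TGFb3 replicate 3, and the 20 pseudogenes of RPL31 summed to 1.44 TPM in that sample. RPL37 differed by 0.31 ± 0.21, and by 0.08 without TGFb3 replicate 2. None of the 3 genes was called. RPL27A, RPS20 and RPL10, next in order at the high end, differed by 0.14 ± 0.065, 0.12 ± 0.084 and 0.10 ± 0.043 and were not called. RPS6, at −0.10 ± 0.053, and RPS27A, at −0.13 ± 0.055, were not called, while RPL41, at −0.12 ± 0.046, and RPS24, at −0.17 ± 0.065, had adjusted p-values of 0.046 and 0.041, and lost the call on leaving out any sample but control replicate 3. With median ratio rescaling neither RPL41, at −0.08, nor RPS24, at −0.13, was called. With quantile normalisation RPL41 was not called, at −0.10, while RPS24 was called lower, at −0.35, as were RPS6, at −0.23 (adjusted p = 0.00026 in limma), and RPL13A, at −0.29.

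Copies with TGFb3 showed the largest differences of the family. RPL22L1, a paralogue that RPL22 holds down in mouse cells, lies at chr3:170864875-170870483 (minus strand, GENCODE release 29). It had 233, 299 and 225 TPM with TGFb3 against 516, 554 and 402 TPM in control, without overlap. The log2 difference was −0.95 ± 0.13 (SE, adjusted p = 0.00011), −1.09 to −0.86 on leaving out each sample in turn and −0.96 to −0.91 over the scales. RPL22 itself had 457, 467 and 493 TPM with TGFb3 against 554, 555 and 513 TPM in control and differed by −0.19 ± 0.044 (SE, adjusted p = 0.0035). As a percent of RPL22, RPL22L1 was at 51.0%, 64.1% and 45.5% with TGFb3 against 93.3%, 99.8% and 78.3% in control.

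RPL39L had 10.7, 9.33 and 11 TPM with TGFb3 against 20.7, 21.9 and 16.6 TPM in control, also without overlap, and differed by −0.86 ± 0.12 (SE, adjusted p = 0.00013). RPL39, the gene it copies, had 1833, 1761 and 1711 TPM with TGFb3 against 1647, 1866 and 1787 TPM in control and differed by 0.00 ± 0.053. RPL39L was thus at 0.583%, 0.530% and 0.642% of RPL39 with TGFb3 against 1.26%, 1.17% and 0.928% in control. RPL7L1 had 88.9, 91.1 and 92.8 TPM with TGFb3 against 122, 124 and 128 TPM in control, a difference of −0.45 ± 0.044 (SE, adjusted p = 1.1e-05). RPL26L1 had 50.6, 51.5 and 51.2 TPM with TGFb3 against 59.8, 57.4 and 55.3 TPM in control and differed by −0.17 ± 0.051, a call lost without control replicate 1. That call was also lost with median ratio rescaling and with quantile normalisation, at −0.12 in each (adjusted p = 0.098 and 0.071 in limma). RPS27L had 27.3, 40.0 and 21.5 TPM with TGFb3 against 24.8, 41.9 and 23.4 TPM in control and differed by −0.02 ± 0.24.

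Under high calcium the copies went different ways. RPL22L1 had 476, 462 and 429 TPM in high calcium, within the control range of 402 to 554 TPM, and differed by −0.09 ± 0.13 (adjusted p = 0.54). RPL39L, at 16.3, 20.6 and 19.7 TPM, also overlapped the controls and differed by −0.06 ± 0.12. Both were further below control on the other scales but not called (adjusted p = 0.052 to 0.097 in limma). RPL22L1 was at −0.29 without mitochondrial genes, −0.35 with median ratio rescaling and −0.25 with quantile normalisation. In the same order RPL39L was at −0.25, −0.30 and −0.28. RPL7L1 was lower, at 94.8, 104 and 101 TPM in high calcium against 122, 124 and 128 TPM in control, with a difference of −0.32 ± 0.044 (SE, adjusted p = 0.00013). RPL26L1 was higher as deposited, at 75.3, 67.1 and 71.9 TPM against 59.8, 57.4 and 55.3 TPM in control (0.31 ± 0.051, adjusted p = 0.00044), and was not called without mitochondrial genes, at 0.12. RPS27L had 31.8, 28.1 and 34.9 TPM in high calcium against 24.8, 41.9 and 23.4 TPM in control, a difference of 0.11 ± 0.24 that was not called.

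The ratio of copy to gene was compared by exact permutation tests, 18 in all, with a smallest possible two-sided p of 0.1. For RPL22L1 over RPL22 the log2 ratio differed by −0.76 with TGFb3 and by −0.14 with high calcium against control, and for RPL39L over RPL39 by −0.93 and −0.34 in the same order of comparisons. RPL7L1 over RPL7 differed by −0.32 with high calcium and −0.29 with TGFb3, and its 6 treated samples, at 4.78% to 5.24% of RPL7, all lay below the controls, at 5.92%, 5.92% and 6.87%. RPL26L1 over RPL26 differed by 0.26 with high calcium and −0.02 with TGFb3. In the exact permutation tests groups without overlap had p = 0.1, or 0.23 adjusted over the 18 tests, so none could pass 0.05. RPL36AL, at 50.2% to 67.5% of RPL36A over the 9 samples, differed in ratio by 0.09 with high calcium and 0.18 with TGFb3, with overlapping groups.

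**Figure D4:**
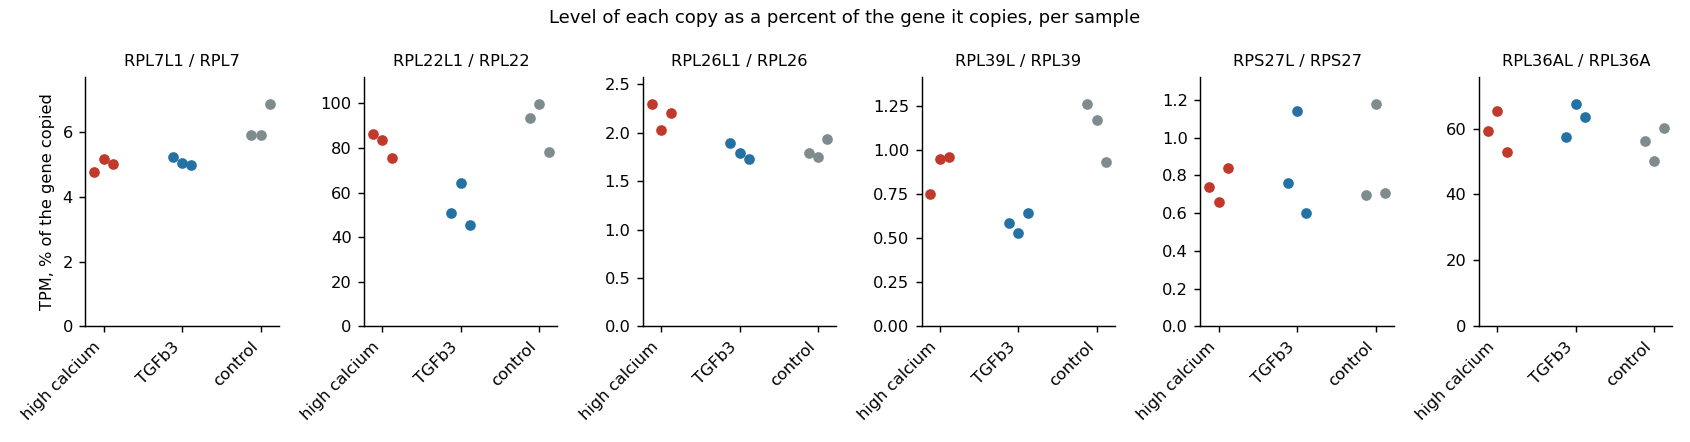
TPM of each copy as a percent of the gene it copies, 1 panel per pair and 1 point per sample, each with its own axis from 0. RPL22L1 and RPL39L lie lowest with TGFb3 (45.5% to 64.1% and 0.530% to 0.642% of their gene), RPL7L1 lies below control in both treated groups, and RPS27L overlaps in all groups.

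High calcium against TGFb3, whose log2 differences use no control sample, showed the family as a whole higher in high calcium on the deposited scale. Control samples still enter its p-values and calls through the shared estimate of error. As deposited 60 of 81 members were higher, 0 were lower and 21 were not called in limma, where 50.4% of all tested symbols were called higher and 16.2% lower, and 0 were lower at an unadjusted p under 0.05. The median member differed by 0.28 and the median symbol by 0.27. Without mitochondrial genes 28 were higher and 3, RPL11, RPL6 and RPL24, were lower, beside 35.5% and 24.1% of all symbols, and with median ratio rescaling 9 were higher and 9 lower. Among the largest differences were those of RPL22L1, at 0.86, RPL39L, at 0.81, RPL34, at 0.55, and RPL14, at 0.53, all called as deposited. RPL34 was not called without mitochondrial genes, at 0.36, or with median ratio rescaling, at 0.25. RPL14 was not called with median ratio rescaling, at 0.23. At the other end were RPL11, at −0.10, RPL31, at −0.10, RPL6, at 0.01, RPL24, at 0.02, and RPS26, at 0.02, none called. RPL31 was at 0.40, and called, without TGFb3 replicate 3, and RPL11 at −0.26, and called, without high calcium replicate 3. The 9 members higher on all 4 scales, where 28.2% of symbols were, included RPL10, RPL13A, RPL22L1, RPL26L1, RPL39L, RPLP1, RPS2 and RPS28.

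Shares of the family sum do not depend on the scale of a library, and are given without a test. RPL10 made up 1.07%, 1.05% and 1.10% of the family sum in high calcium, 0.999%, 0.945% and 0.957% with TGFb3, and 0.786%, 0.815% and 0.865% in control. RPL27A made up 0.403%, 0.417% and 0.379% in high calcium, 0.353%, 0.392% and 0.324% with TGFb3, and 0.305%, 0.281% and 0.294% in control. Both genes thus took more of the family in all 6 treated samples than in any control. RPL35 took less in all 6, at 1.11%, 1.11% and 1.07% in high calcium and 1.31%, 1.28% and 1.21% with TGFb3, against 1.44%, 1.45% and 1.36% in control. RPL5 did so too, at 1.72%, 1.63% and 1.77% in high calcium and 1.73%, 1.77% and 1.76% with TGFb3, against 2.07%, 2.01% and 1.89% in control.

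Samples of a group differed more for some members than for most. The median coefficient of variation of core genes was 3.36% in high calcium, 4.66% in TGFb3 and 5.40% in control. For 686 other genes it was 2.40%, 4.03% and 3.95% in the same groups. These were all others outside the mitochondrial genome with a mean at least that of RPS28, and were not matched in level. Above 20% lay RPL13, RPL28, RPL34, RPL37, RPS15A and RPL11 in high calcium, RPL31, RPL37 and RPS15A in TGFb3, and RPL37A, RPL28, RPS15A and RPS23 in control. RPL13, for example, had 459, 930.3 and 618 TPM in high calcium, 499.7, 578 and 394 TPM with TGFb3 and 631, 543 and 483 TPM in control, and RPS15A had 1034, 1550.1 and 1234, then 764, 1092 and 1402, then 851, 1527 and 799 TPM in the same order of groups. Neither was called in a comparison against control. Ribosomal protein genes have many processed pseudogenes, and 963 such symbols together held 0.0911 ± 0.0034% of TPM in high calcium, 0.0743 ± 0.0022% in TGFb3 and 0.0731 ± 0.0027% in control. The largest share for one gene was that of 91 RPL23A pseudogenes, 9.34% of RPL23A. Reads of near-identical copies may be divided differently by other counting. How uncertain this leaves the level of each member was not tested, and the share on pseudogenes does not measure it.

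The parts of the ribosome outside the symbol rule were close to the family. RACK1, a scaffold on the small subunit, had 2491, 2538 and 2479 TPM in high calcium, 1985, 1854 and 1792 TPM with TGFb3 and 2215, 2278 and 2143 TPM in control. It was called higher in high calcium as deposited (0.18 ± 0.047, −0.02 without mitochondrial genes) and lower with TGFb3 (−0.24 ± 0.047, on both scales). RPSA, the small-subunit protein also known as the laminin receptor, differed by 0.05 ± 0.042 in high calcium, not called, and by −0.17 ± 0.042 with TGFb3, called. FAU and RPL36AL were called higher in high calcium as deposited, at 0.20 ± 0.074 and 0.19 ± 0.046, and both were at 0.00 without mitochondrial genes. Neither FAU nor RPL36AL was called with TGFb3.

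The genes that build ribosomes had lower median differences than those of the finished particle. The counts for this and the other gene sets below stand against 46.1% of all tested symbols called higher and 17.0% lower in high calcium as deposited, 32.3% and 26.4% without mitochondrial genes, and 26.5% and 33.1% with TGFb3. Of 65 ribosome biogenesis genes 46 were lower and 5 higher in high calcium against control, with a median of −0.33, and 61 were lower and 1 higher with TGFb3, with a median of −0.84. The lower ones made up 70.8% of the set in high calcium and 93.8% with TGFb3. Without mitochondrial genes the counts were 57 lower and 2 higher for high calcium and 61 lower and 1 higher for TGFb3. NCL, or nucleolin, had 582, 567 and 588 TPM in high calcium, 450, 459.9 and 469 TPM with TGFb3 and 1079.7, 1076 and 1039 TPM in control, differences of −0.88 ± 0.035 and −1.21 ± 0.035 (SE). TCOF1, which serves rRNA transcription, had 46.4, 45.9 and 45.9 TPM in high calcium, 52.2, 52.0 and 49.9 TPM with TGFb3 and 117, 119.5 and 125 TPM in control. NOP56, of the methylation-guide particles, was lower by −1.11 ± 0.1 in high calcium and −1.33 ± 0.1 with TGFb3, and RRP9 by −0.33 ± 0.096 and −1.38 ± 0.096. Levels of NCL, TCOF1 and NOP56 in both treated groups lay below every control sample.

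RNA polymerase I, which makes the large rRNA precursor, and the dedicated chaperones of ribosomal proteins gave smaller sets. Of 14 tested polymerase I genes 7 were lower and 1 higher in high calcium (median −0.19, and 10 and 0 without mitochondrial genes), and 12 lower and 0 higher with TGFb3 (median −0.67), so that 50% and 85.7% were lower. POLR1B, a catalytic subunit, had 57.0, 59.4 and 53.2 TPM in high calcium, 27.3, 25.2 and 26.5 TPM with TGFb3 and 66.0, 65.9 and 70.0 TPM in control, and CD3EAP, a polymerase I subunit, 8.31, 11.5 and 11.1, then 28.9, 27.5 and 32.2, then 38.5, 34.5 and 38.3 TPM in the same order. Of 7 chaperone genes 4 were lower and 0 higher in high calcium (6 and 0 without mitochondrial genes), and 7 lower and 0 higher with TGFb3, or 57.1% and 100.0% lower. BCCIP, a chaperone of RPL23, differed by −0.58 ± 0.044 in high calcium and −0.92 ± 0.044 with TGFb3, and PDCD2L, which acts on small-subunit proteins, by −1.05 ± 0.13 with TGFb3 and by 0.29 ± 0.13 in high calcium, not called.

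The proteins of the mitochondrial ribosome form the most similar family. Their lower members made up 43.6% in high calcium and 92.3% with TGFb3. Of 78 genes 34 were lower and 8 higher in high calcium (median −0.15, and 53 and 2 without mitochondrial genes), and 72 lower and 0 higher with TGFb3 (median −0.56), where the cytosolic family had a median of −0.14. Their sum was 0.582 ± 0.002% of TPM in high calcium, 0.436 ± 0.009% with TGFb3 and 0.650 ± 0.02% in control (SD, n = 3 each), without overlap between the groups. MRPL12 had 106, 102 and 103 TPM in high calcium, 59.0, 55.3 and 54.3 TPM with TGFb3 and 114, 125 and 133 TPM in control. MRPS18B was an exception in high calcium, at 84.0, 83.4 and 76.1 TPM against 53.2, 55.1 and 57.0 TPM in control (0.55 ± 0.055), and was lower with TGFb3 (−0.76 ± 0.055).

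**Figure D5:**
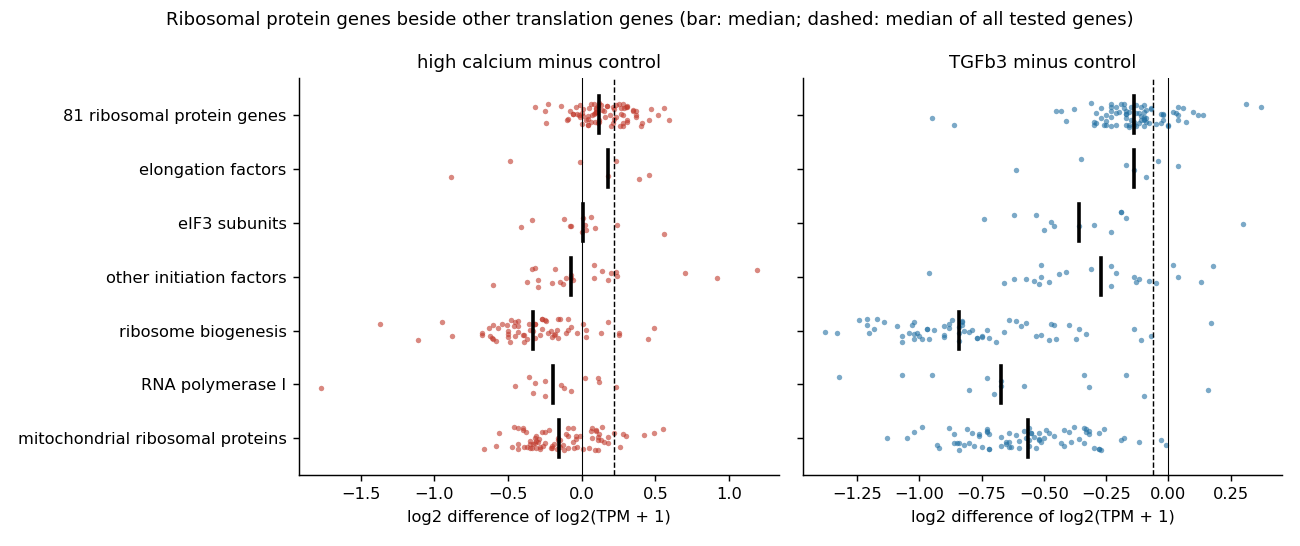
Log2 differences of log2(TPM + 1) against control for the 81 ribosomal protein genes and 6 other sets of translation genes, 1 point per gene, with a bar at the median of each set and a dashed line at the median of all tested symbols (0.22 for high calcium, −0.06 for TGFb3). Biogenesis genes have medians of −0.33 and −0.84 and mitochondrial ribosomal proteins of −0.15 and −0.56, while the ribosomal protein genes have 0.12 and −0.14.

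Translation factors were mixed. Of 7 tested elongation factor genes 4 were higher and 2 lower in high calcium as deposited but 1 higher and 3 lower without mitochondrial genes, and 0 higher and 3 lower with TGFb3. The 57.1% higher in high calcium as deposited and the 42.9% lower with TGFb3 rest on these few genes. EEF2, which moves the ribosome along the mRNA, had 1532, 1533 and 1511 TPM in high calcium, 1055, 1117 and 994 TPM with TGFb3 and 1110.4, 1125 and 1248 TPM in control, and was higher in high calcium on both scales (0.39 ± 0.056 as deposited, 0.20 without mitochondrial genes). EIF5A was lower in both, by −0.49 ± 0.067 and −0.61 ± 0.067. Of 13 eIF3 subunits 12 were lower and 0 higher with TGFb3, and 2 lower and 1 higher in high calcium (9 lower and 0 higher without mitochondrial genes), so that 92.3% were lower with TGFb3 and 15.4% in high calcium. EIF3B had 179.6, 176 and 174 TPM in high calcium, 143, 136 and 141 TPM with TGFb3 and 232, 235 and 237 TPM in control. Of 24 other initiation factors 7 were higher and 9 lower in high calcium (3 and 13 without mitochondrial genes), and 2 higher and 15 lower with TGFb3, or 37.5% lower in high calcium and 62.5% with TGFb3. The helicase EIF4A2 had 678, 686 and 692 TPM in high calcium against 299.6, 304 and 292 TPM in control (1.19 ± 0.044), while its paralogue EIF4A1 had 974, 931 and 950.5 TPM against 1217, 1259.8 and 1224 TPM in control (−0.37 ± 0.042).

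Other mRNAs with a TOP tract behaved in part like the family. Of 14 such genes, 5 of them also elongation factors, 7 were higher and 1 lower in high calcium as deposited but 1 higher and 3 lower without mitochondrial genes, and 0 higher and 8 lower with TGFb3. The 50% higher in high calcium was near the share of all symbols, and 57.1% were lower with TGFb3. PABPC1, the poly(A)-binding protein, had 1384, 1558 and 1595 TPM with TGFb3 against 2465, 2409.6 and 2283 TPM in control (−0.66 ± 0.11). As deposited, core ribosomal protein genes with a run within 5 bases of a start had a median of 0.14 in high calcium (52 genes, 21 called higher and 1 lower), and those without one 0.01 (9 genes, 3 higher and 1 lower). Without mitochondrial genes these medians were −0.06 (11 higher and 12 lower) and −0.19 (0 higher and 5 lower). With TGFb3 as deposited they were −0.13 (0 higher and 17 lower) and −0.16 (0 higher and 5 lower). The difference between these sets was not tested, and a missing match says only that these letters are not in the windows at hand.

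Regulators of the TOP tract and of ribosome use are given next. Of 19 mTOR and TOP control genes 10 were higher and 3 lower in high calcium (6 and 6 without mitochondrial genes), and 3 higher and 14 lower with TGFb3. In high calcium the shares, 52.6% higher and 15.8% lower as deposited and 31.6% each without mitochondrial genes, were near those of all symbols, while 73.7% were lower with TGFb3. SESN2, an mTOR inhibitor, had 30, 28.4 and 28.1 TPM in high calcium, 12.5, 11.3 and 11.8 TPM with TGFb3 and 9.15, 11 and 9.98 TPM in control. DDIT4, another, was higher in high calcium (0.38 ± 0.046) and lower with TGFb3 (−1.06 ± 0.046). LARP1 differed by 0.08 ± 0.054 in high calcium, not called, and by −0.44 ± 0.054 with TGFb3, called. Of 5 factors that sit on idle ribosomes or mark them, 3 were higher and 2 lower in high calcium and 1 higher and 2 lower with TGFb3, on both scales. IFRD1 had 166, 126 and 163 TPM in high calcium, 57.2, 63.6 and 65.8 TPM with TGFb3 and 50.4, 64.3 and 61.5 TPM in control (1.35 ± 0.12 for high calcium). SERBP1, which stabilises empty ribosomes, was lower in both, by −0.46 ± 0.038 and −0.73 ± 0.038.

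The MDM2 axis, which free RPL5 and RPL11 can reach, and ribosome rescue are given last. Of 11 genes of that axis 7 were higher and 1 lower in high calcium (4 and 2 without mitochondrial genes), and 3 higher and 5 lower with TGFb3. That is 63.6% higher in high calcium as deposited, 36.4% without mitochondrial genes, and 45.5% lower with TGFb3, in a set too small to read a modest gap from. CDKN1A, a cell cycle inhibitor, was higher in both, at 108, 105 and 102 TPM in high calcium and 108, 101 and 90.5 TPM with TGFb3 against 32.6, 31.8 and 35.9 TPM in control. MDM2 had 88.0, 81.4 and 82.6 TPM in high calcium, 26.8, 29.4 and 28 TPM with TGFb3 and 43.1, 45.2 and 54.5 TPM in control, so it was higher in the first (0.81 ± 0.081) and lower in the second (−0.74 ± 0.081). Of 14 ribosome quality control genes 7 were higher and 2 lower in high calcium as deposited but 3 higher and 4 lower without mitochondrial genes, and 4 higher and 5 lower with TGFb3. These shares, 50% higher and 14.3% lower in high calcium and 28.6% higher and 35.7% lower with TGFb3, were near those of all symbols. ZNF598, which marks collided ribosomes, differed by 0.66 ± 0.089 in high calcium and −0.52 ± 0.089 with TGFb3, and ABCE1, the recycling factor, by −0.35 ± 0.044 and −0.94 ± 0.044. All lists were drawn up with results of these data known, so their counts are descriptions.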

How the data were processed

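Total RNA of 9 MCF10A samples, extracted with Trizol, was sequenced in 101 bp paired reads, per the labels' protocols. The submitters' processing notes name HISAT2 and hg38, and no source used here names the quantifier or annotation. The authors deposited TPM values in 1 table of the whole series, whose 9 sample columns all matched a label (0 left unmapped); counts were not used here, so depth is unknown and no counting interval is given.

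From 58288 entries, 1932 that shared 253 symbols were summed, giving 56609 symbols. Symbols averaging 1 TPM or more (13968) were fitted as log2(TPM + 1) with limma 3.58.1 (R 4.3.3) over all 3 groups (6 residual degrees of freedom), and called at a Benjamini-Hochberg adjusted p under 0.05. Fold changes on this scale understate the change of low genes. A second fit left out 37 mitochondrial symbols and rescaled the rest. Summaries used Python 3.11.15, pandas 2.3.3, scipy 1.17.1 and matplotlib 3.10.9. Positions came from GENCODE 29 and start windows from RefSeq (GRCh38.p14).

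On simulated data with 13968 genes and 200 changed, the high calcium comparison recovered 91% of 2-fold and 15.5% of 1.25-fold changes, and the TGFb3 comparison 85% and 18.5%. Of the calls made there, unchanged genes were 6.67% at 2-fold and 13.9% at 1.25-fold for high calcium, and 7.1% and 2.63% for TGFb3. In the data far more symbols were called, 46.1% higher and 17.0% lower in high calcium as deposited. The simulated rates, taken over genes of all levels, therefore need not hold for the fits or the members here.

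The members and gene lists were chosen with earlier results of these data known. Named genes were the 5 highest and 5 lowest differences per comparison, the copies with the genes they copy, RPLP0, RPLP1, RPLP2, RPL5, RPL11, RPS6, RPS27A and RPL41, the 3 highest mean levels, the genes outside the symbol rule, and up to 4 called genes per other list; some of these are not reported here. Genes printed for their shares or their scatter were picked after their values were seen. Alternatives were median ratio rescaling, quantile normalisation, another pseudocount (0.1), a minimum of 5 TPM or none, fits of the compared groups only, a replicate block, and leaving out each sample.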

Additional observations from a re-analysis of the deposited data

How the results depend on the processing

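Counts of called ribosomal protein genes turned mainly on the scale. For high calcium against control, 33 higher and 3 lower became 4 and 31 with median ratio rescaling, 21 and 11 with quantile normalisation, and 12 and 21 without mitochondrial genes. From the fit without mitochondrial genes, 12 higher became 4 with median ratio rescaling and 6 with no filter. For TGFb3 against control, 0 higher became 1 with median ratio rescaling (RPL10), quantile normalisation (RPL27A) and a replicate block (RPL27A), and 33 lower became 19 with median ratio rescaling. Without mitochondrial genes 0 higher became 1 with median ratio rescaling, quantile normalisation, a minimum of 5 TPM or a pseudocount of 0.1, and 37 lower became 19 with median ratio rescaling and 24 with no filter. For high calcium against TGFb3, 60 higher and 0 lower became 9 and 9 with median ratio rescaling and 28 and 3 without mitochondrial genes, and lower ones became 3 with quantile normalisation. From the fit without mitochondrial genes, 28 and 3 became 7 and 9 with median ratio rescaling. The cause was not tested beyond the rescaling itself.

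Leaving out each sample gave 26 to 34 higher and 3 to 4 lower for high calcium, 0 to 1 and 25 to 38 for TGFb3, and 57 to 61 and 0 to 1 for high calcium against TGFb3. Without mitochondrial genes these were 6 to 12 and 17 to 29, 0 to 1 and 26 to 38, and 21 to 30 and 2 to 4.

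Single genes changed sign as follows. For high calcium against control with median ratio rescaling, RPLP0 was at −0.03, RPS6 −0.12, RPS27A −0.18, RPL41 −0.21, RPS27L −0.13, RPL22 −0.21, RPL26 −0.20, RPL36A −0.15 and RPS24 −0.23. With quantile normalisation RPS27A was at −0.01, RPL41 −0.03, RPS27L −0.09, RPL22 −0.10, RPL26 −0.03 and RPL36A −0.05. Without mitochondrial genes RPS6 was at −0.07, RPS27A −0.12, RPL41 −0.15, RPS27L −0.08, RPL22 −0.15, RPL26 −0.14, RPL36A −0.09 and RPS24 −0.17. For TGFb3 against control RPLP1 was at 0.02 and RPS27L at 0.03 with median ratio rescaling, and RPS27L at 0.03 and RPS27 at −0.14 with quantile normalisation. For high calcium against TGFb3 with median ratio rescaling, quantile normalisation and mitochondrial genes left out, RPL6 was at −0.29, −0.11 and −0.18, RPL24 at −0.28, −0.13 and −0.17, RPS26 at −0.28, −0.20 and −0.18, RPL7L1 at −0.16, −0.08 and −0.06, and RPS27L at −0.16, −0.12 and −0.06.

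On leaving out each sample, high calcium minus control ranged over −0.02 to 0.10 for RPL26, −0.17 to 0.04 for RPL39L, −0.00 to 0.07 for RPL41, −0.05 to 0.03 for RPL7, −0.05 to 0.08 for RPS24 and −0.04 to 0.37 for RPS27L. TGFb3 minus control ranged over −0.14 to 0.66 for RPL31, −0.70 to 0.00 for RPL37A, −0.05 to 0.04 for RPL39, −0.08 to 0.01 for RPLP1 and −0.25 to 0.24 for RPS27L. High calcium minus TGFb3 ranged over −0.39 to 0.40 for RPL31, −0.01 to 0.03 for RPL6, −0.11 to 0.10 for RPS26 and −0.07 to 0.36 for RPS27L.

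Same-numbered samples did not deviate together (correlations −0.07 to −0.00 over genes), so the numbers were not taken as pairs. With a replicate block the counts were 31 higher and 4 lower for high calcium, 1 and 30 for TGFb3, and 59 and 0 for high calcium against TGFb3.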
